A study of Mus musculus with 6 samples.

Results

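Resident natural killer (NK) and type 1 innate lymphoid cell-like (ILC1-like) cells of the mouse kidney were chosen by their own transcript counts in single-cell RNA profiles. A barcode entered the NK gate with at least 2 of Ncr1, Klrb1c, Klre1, Gzma and Eomes detected, at most 1 unique molecular identifier (UMI, 1 counted transcript) over Cd3d, Cd3e and Cd3g, and no Cd79a. It was called resident with at least 1 UMI of Cxcr6 or Itga1. By this rule 107 barcodes were residents, of 389 in the NK gate and 12596 barcodes that passed the quality filters. Of these 107 residents, 103 came from control and 4 from rhabdomyolysis libraries. The other 282 barcodes of the NK gate, 141 in each group, had neither Cxcr6 nor Itga1 and are called other NK cells.

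The cells came from kidneys of C57BL/6J mice, all 8 weeks old, digested with collagenase and DNase and sorted for CD45, the surface marker of leukocytes. Of 6 libraries 3 were control and 3 came from rhabdomyolysis, an induced breakdown of muscle that leads to acute injury of the kidney. The agent, its dose, the time after injury and what the control mice received are not given in the sources used here. The labels also do not say that libraries of a group came from separate animals. Each p-value between groups thus reflects only how libraries of a group vary. Where residents and other NK cells are compared within libraries, it reflects how their difference varies between libraries. Either variation may be technical.

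As background, NK cells and ILC1s are lymphocytes without rearranged antigen receptors that carry the receptor NKp46, encoded by Ncr1, and respond to stressed or infected cells. Conventional NK cells circulate, carry granzymes, perforin and Ly49 receptors, and depend on the transcription factor Eomes. ILC1s and tissue-resident NK cells stay in organs such as liver, salivary gland and kidney, where the collagen receptor subunit CD49a (Itga1) and the chemokine receptor CXCR6 mark many of them.

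The libraries held 10816727 to 22656666 gene UMIs and gave 1013 to 3471 passing barcodes. Pairs of libraries shared 0 to 3 of the passing barcode sequences, and none of those was in the NK gate. The NK gate held 107, 80 and 57 barcodes in control replicates 1 to 3, and 24, 18 and 103 in rhabdomyolysis replicates 1 to 3. Residents had a median of 3557, 3771 and 3803 UMIs in the control libraries and other NK cells 3407, 3272 and 3377. Other NK cells of rhabdomyolysis were shallower in replicates 1 and 2, with 2378 and 2137.5 UMIs, and not in replicate 3, with 3632. A simulated-doublet score marked 4 residents and 6 other NK cells of control libraries as likely doublets, and all were kept.

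The genes of the gate describe the cells and were not tested, since they chose them. Among control residents 64 had Cxcr6 without Itga1, 9 had Itga1 without Cxcr6 and 30 had both. The Cxcr6 and Itga1 UMIs together counted 1 in 23 control residents, just inside the rule, 2 in 28, 3 in 13, 4 in 11 and 5 or more in 28. The 141 control cells just outside had 0. In rhabdomyolysis 3 residents had 1 such UMI and 1 had 2. As a measure of background, Cxcr6 was seen in 2 of 746 B cells and 9 of 2964 macrophages of the control libraries.

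Ncr1, which encodes NKp46, was at 1444, 1345 and 1245 counts per 1000000 (CPM, scaled within each library and class) in residents of control replicates 1 to 3. In other NK cells it was at 1213, 1000 and 1011 CPM. Klrb1c, for the receptor NK1.1, was at 665, 752 and 608 CPM in residents and 790, 646 and 837 CPM in other NK cells, with overlapping values. Gzma, which encodes granzyme A, was at 521, 317 and 42.5 CPM in residents against 11784, 11044 and 14245 CPM in other NK cells, and 14 of 103 residents against 119 of 141 other NK cells had a Gzma UMI. Eomes, the conventional NK cell factor, was seen in 1 of 103 residents and 48 of 141 other NK cells. Every control library showed the low Gzma and near absence of Eomes in residents. Of the 103 control residents, 94 had a Cxcr6 UMI and 39 an Itga1 UMI.

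The label of the cells was checked against markers of other lymphocytes. In residents the 7 innate lymphoid cell 3 markers summed to 6.90 to 28.7 CPM, with 5 of them at 0. In other NK cells all 7 were at 0. Il1rl1, the receptor that marks group 2 innate lymphoid cells, was at 0 in both NK classes. The innate lymphoid cell 2 list as a whole was at 396 to 490 CPM in residents and 157 to 290 CPM in other NK cells, and it holds Rora, which is described below. T cell markers summed to 1409 to 2193 CPM in residents, 619 to 738 CPM in other NK cells and 9937 to 10429 CPM in T cells, with 6 of the 13 markers at 0 in residents. Most of the residents' sum came from Trbc1 and Trbc2, the constant regions of the T cell receptor beta locus, while Trac, the alpha constant region, had 3 UMIs in 103 residents. The antibody tag against CD3, which the rule did not use, gave 1.76 ± 0.726 (SD, n = 3 libraries) UMIs per resident, 1.73 ± 0.354 per other NK cell and 14.2 ± 4.78 per T cell. The residents thus carried beta chain transcripts at a CD3 tag level near that of other NK cells. Gamma-delta T cell markers, of which 4 of 7 were in the matrices, summed to 13.8 to 56.6 CPM in residents. In other NK cells they summed to 64.4 to 129 CPM. Trdc, the delta constant region, was seen in 4 of 45, 2 of 39 and 2 of 19 residents of control replicates 1 to 3. Among other NK cells it was seen in 16 of 62, 14 of 41 and 8 of 38, the reverse of Tcrg-C4 described below. Macrophage markers summed to 325 to 3724 CPM in residents and 1028 to 4798 CPM in other NK cells, against 36340 to 45033 CPM in macrophages. The tag against F4/80, a macrophage surface protein, gave 7.88 ± 5.19 UMIs per resident and 8.70 ± 2.27 per other NK cell (SD, n = 3 libraries). It gave 3.18 ± 0.951 per T cell, 3.51 ± 1.22 per B cell and 70.8 ± 26.2 per macrophage. The T and B cell gates, unlike the NK gate, left out barcodes with C1q UMIs, and the source of this tag level was not tested. Without barcodes that held over 2 UMIs of macrophage genes, 184 genes were called between the classes described below, in place of 156. Kidney tubule markers were at 5.73 to 14.2 CPM in residents and 6.44 to 2783 CPM in other NK cells, where 1 barcode of control replicate 2 held all 63 Gpx3 UMIs.

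**Figure D1:**
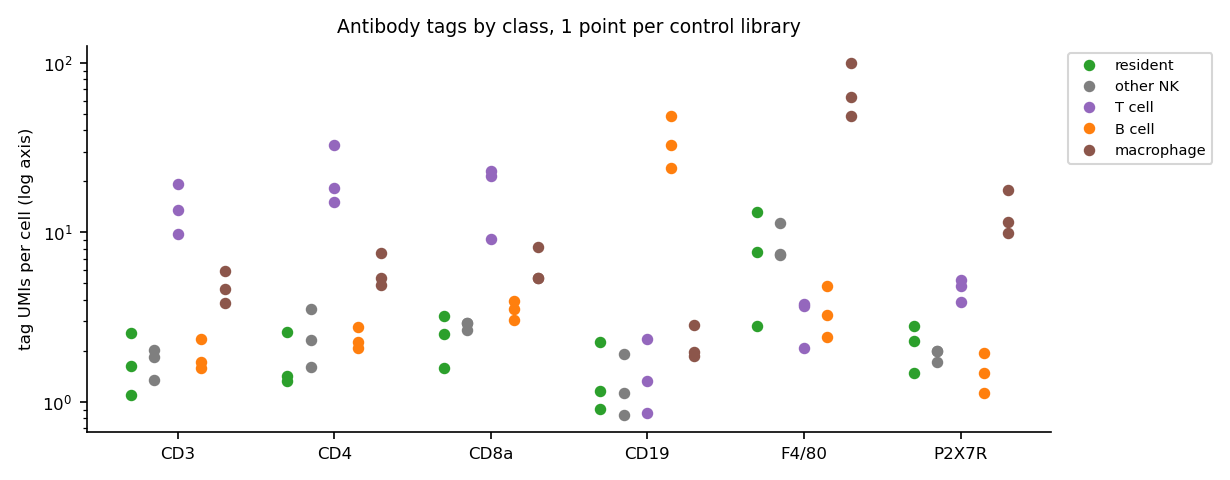
Antibody tags by cell class in the 3 control libraries: the vertical log axis gives tag UMIs per cell, and each point is 1 library and class. Residents and other NK cells overlap for all 6 tags, and T cells lie above both for CD3, CD4 and CD8a.

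Counted per cell, none of the 6 antibody tags in the matrices separated the NK classes. The tag against P2X7R, an ATP-gated channel, gave 2.82, 2.28 and 1.47 UMIs per resident in control replicates 1 to 3 and 1.98, 2 and 1.71 per other NK cell, so the classes overlapped and replicate 3 went the other way. As a share of all tag UMIs of the class, its log2 ratio of residents to other NK cells was 0.33, 0.12 and 0.66, above 0 in all 3 libraries. On that scale the exact sign-flip p was 0.25 for P2X7R and for CD3, the smallest that 3 pairs allow. Over the 6 tags the Benjamini-Hochberg (BH) adjusted p of this exact test was 0.75 for each.

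Residents and other NK cells of the same control libraries differed in many genes. UMIs were summed per class and library and compared by the quasi-likelihood test of edgeR, with the library as a block. Of 2389 genes tested, 156 (6.53%) were called at a BH adjusted p under 0.05. Of all tested genes 74 (3.1%) were higher in residents and 82 (3.43%) lower. Residents had more transcripts of Xcl1 and Ltb, of the cytokine receptor Il7r and of the transcription factors Rora and Ikzf2. They had fewer of the genes for perforin, granzyme B, Ly49 receptors and factors of circulation such as S1pr5 and Klf2. The cells had been split by Cxcr6 and Itga1, and other genes that vary with these 2 are described here by their size. Leaving out control replicate 2 gave 81 calls, and the DESeq2 Wald test 47.

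Genes were named after filters on level, direction and free RNA, given with the processing, so larger changes, such as that of Ckb, can be left out. The 12 named genes with the largest rise began with Krt83, a hair keratin gene. It was at 189, 159 and 99.1 CPM in residents against 8.73, 20.4 and 0 CPM in other NK cells. Its log2 difference was 3.85 ± 0.49 (SE), with an edgeR BH adjusted p of 6.95e-06. Tcrg-C4, a constant region of the T cell receptor gamma locus, was at 172, 166 and 99.1 CPM against 21.8, 20.4 and 6.44 CPM. Ramp1, a subunit of the receptor for the neuropeptide CGRP, was at 309, 414 and 226 CPM against 39.3, 47.6 and 32.2 CPM. The groups of values did not overlap for any of these genes, and Ramp1 differed by 2.91 ± 0.28 on the log2 scale (edgeR BH adjusted p = 7.315e-08). S100a4, a calcium-binding protein gene, was at 1352, 1283 and 1783 CPM against 196, 163 and 219 CPM, a log2 difference of 2.85 ± 0.17 (edgeR BH adjusted p = 7.98e-11). It was seen in 89 of 103 residents and 33 of 141 other NK cells.

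Il7r, the receptor subunit for the survival cytokine IL-7, was at 223, 214 and 226 CPM in residents and 26.2, 40.8 and 51.5 CPM in other NK cells. That is a log2 difference of 2.48 ± 0.32 with an edgeR BH adjusted p of 6.38e-06. Rora, a transcription factor of innate lymphoid cells, was at 103, 103 and 170 CPM against 8.73, 40.8 and 19.3 CPM. Ikzf2, the transcription factor Helios, was at 166, 117 and 127 CPM against 34.9, 40.8 and 6.44 CPM. Every resident value of these 3 genes lay above every value of other NK cells. Tnfsf10, which encodes the death ligand TRAIL, was at 143, 145 and 142 CPM against 21.8, 34.0 and 25.8 CPM. Ltb, the lymphotoxin beta gene, was at 1220, 917 and 1104 CPM against 218, 231 and 251 CPM, and 91 of 103 residents held it. In pooled control T cells Il7r, Rora, Ikzf2, Tnfsf10 and Ltb were at 180, 128, 97.6, 83.4 and 1183 CPM, so these genes are not particular to residents. Krt83, Tcrg-C4 and Ramp1 were lower in T cells than in residents, at 46.7, 35.4 and 85.2 CPM. Ramp1 was, however, at 207 CPM in pooled control macrophages. In free RNA (barcodes with at most 100 UMIs) of control replicates 1 to 3 it was at 155, 166 and 141 CPM. The remaining genes of the 12, the predicted gene Gm36723, Fam102a and Tesc, had log2 differences of 2.51, 2.46 and 2.43. In pooled control T cells they were at 33.0, 115 and 172 CPM, and S100a4 was at 977 CPM. The resident mean of Tesc was 82.9 CPM, below its level in T cells. Without control replicate 1 or 2, or with at least 2 UMIs of Cxcr6 and Itga1 as the rule, Tesc did not pass.

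The 12 named genes with the largest fall were led by Itgam, the integrin subunit CD11b of mature NK cells. It had 0 UMIs in residents and 148, 109 and 116 CPM in other NK cells. Over the pooled control UMIs this is at least 16.6-fold lower, taking 3 UMIs as the limit of a count of 0. S1pr5, the receptor by which NK cells leave tissues, had 1 UMI in residents against 63, a pooled ratio of 46.3 (95% counting interval 8.01 to 1856). Cma1, a chymase gene, had 3 against 157 UMIs (ratio 38.4, interval 12.9 to 188), and Klrg1, an inhibitory receptor of mature NK cells, 2 against 64 (23.5, 6.24 to 198). As3mt, an arsenic methyltransferase gene, had 1 against 56 UMIs and Khdc1a 2 against 62. Of these low-count genes the residents thus held next to no transcripts.

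Zeb2, a transcription factor of NK cell maturation, was at 17.2, 0 and 42.5 CPM in residents and 319, 340 and 528 CPM in other NK cells. Its log2 difference was -4.54 ± 0.39 with an edgeR BH adjusted p of 1.28e-08. The Ly49 receptor genes Klra7, Klra4 and Klra8 had log2 differences of -4.37, -4.17 and -4.06. These genes are close copies of one another, so reads may be split between them. Gzmb, for granzyme B, was at 57.3, 27.6 and 0 CPM against 480, 381 and 702 CPM, a log2 difference of -3.81 ± 0.34 (edgeR BH adjusted p = 1.87e-08). A Gzmb UMI was seen in 9 of 103 residents and 84 of 141 other NK cells.

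**Figure D2:**
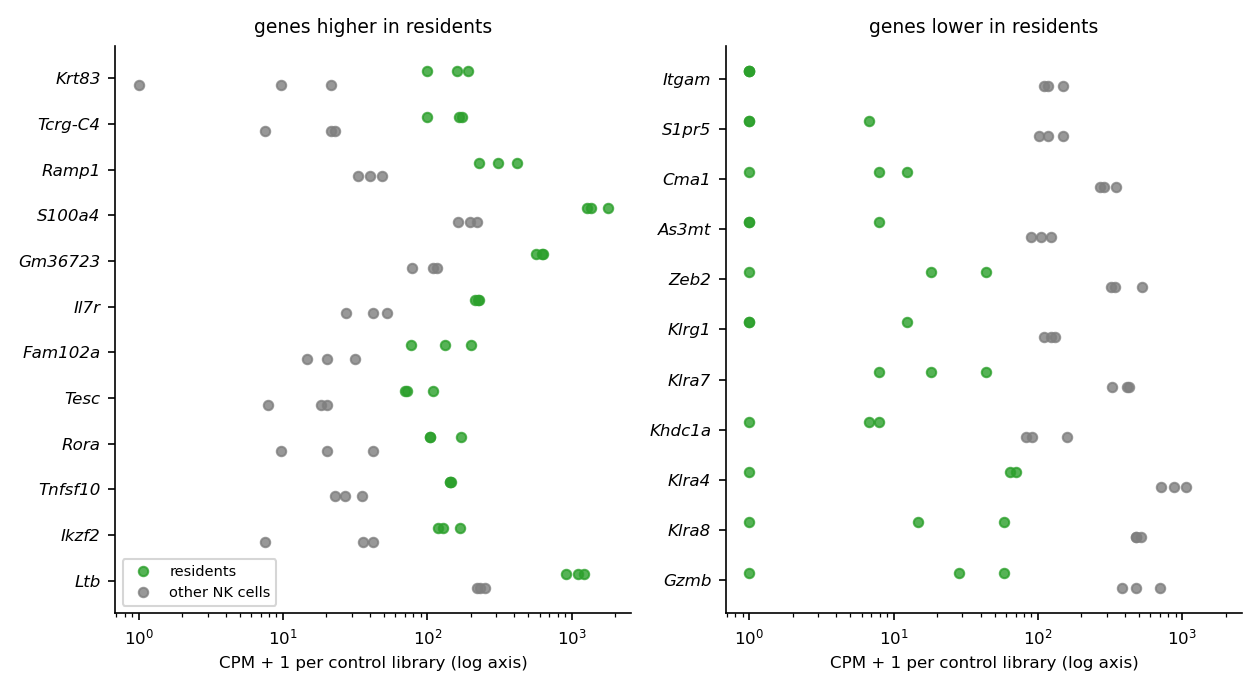
Levels of the 12 named genes with the largest rise and 11 of the 12 with the largest fall in residents. The horizontal log axis gives CPM + 1. Each gene has 3 control libraries as points for residents and 3 for other NK cells. The points of the classes do not overlap for any gene plotted, and Itgam sits at 0 CPM in residents of all 3 libraries.

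Within residents the split by gate gene was uneven. In pooled UMIs, Gzma was at 108 CPM in the 64 cells with Cxcr6 only, 637 in the 30 cells with both and 1598 in the 9 cells with Itga1 only. Klra4 had 0, 11 and 10 UMIs in these subsets, and Klra7 had 0, 0 and 7. The 9 cells with Itga1 only thus had the highest Klra4 and Klra7 levels, at 400 and 280 CPM, although they are few. Xcl1 went the other way, at 3557 CPM with Cxcr6 only, 2259 with both and 1678 with Itga1 only. Klra4 transcripts lay in only 2 of the 103 residents. When the rule was Itga1 alone, 73 genes were called in place of 156, and of the 24 named genes Tcrg-C4, Rora and Ikzf2 did not pass.

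The lists of genes were read by function, as counts of members called beside the shares over all tested genes (3.1% higher, 3.43% lower) and the overall median log2 difference of 0.01. Of 19 tested members of the tissue residency and ILC1-associated list, 14 were higher in residents and none lower, with a median of 1.59. Xcl1, the chemokine for cross-presenting dendritic cells, was at 3357, 2545 and 3354 CPM against 624, 1048 and 412 CPM (log2 difference 2.15 ± 0.19, edgeR BH adjusted p = 2.64e-08) and was seen in 102 of 103 residents. Cd7, Cd160, Ckb and Cxcr3 were higher by 1.82, 1.69, 2.65 and 1.58. The residency genes Cd69 (-0.20), Il18r1 (-0.10) and Cd27 (0.75) did not pass. Podnl1 was too low to be tested, with 31 UMIs in residents and 0 in other NK cells, at least 14.1-fold higher. Of 24 tested members of the circulating and mature NK list, 19 were lower and 1, Cd7, higher, with a median of -2.48. Klf2, which drives expression of exit receptors, was at 212, 297 and 269 CPM against 1379, 1306 and 1571 CPM (log2 difference -2.51 ± 0.17, edgeR BH adjusted p = 5.28e-10).

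**Figure D3:**
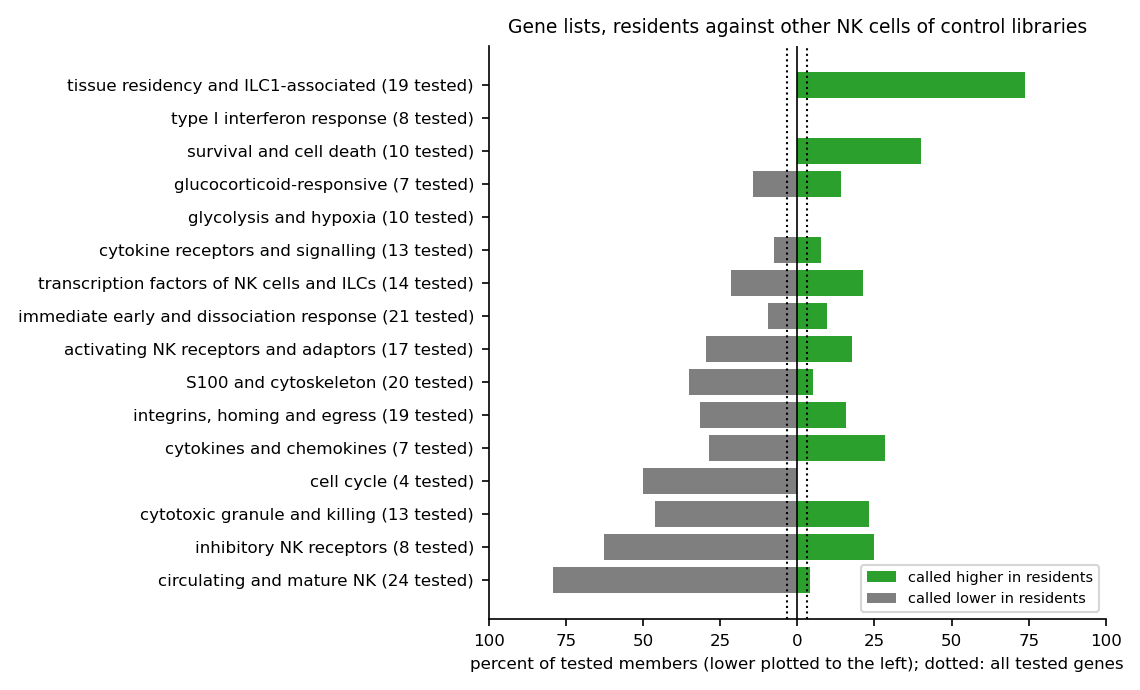
Gene lists compared between residents and other NK cells of the control libraries: each bar gives the percent of tested members called higher (right) or lower (left) in residents, and the dotted lines are the shares over all 2389 tested genes. The residency list (14 of 19 higher) and the circulating list (19 of 24 lower) stand at opposite ends, and the interferon and glycolysis lists hold no call.

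Killing genes fell in part. Of 13 tested members of the cytotoxic list 6 were lower and 3 higher, with a median of -0.85. Prf1, the perforin gene, was at 212, 186 and 212 CPM in residents against 869, 1218 and 1224 CPM (log2 difference -2.46 ± 0.19, edgeR BH adjusted p = 4.33e-09). Nkg7, a granule membrane gene, differed by -0.88 and Cst7, a protease inhibitor, by -1.77, while Tnfsf10 was higher by 2.34, Srgn by 0.62 and Ctsw by 0.49. Of 7 tested cytokine and chemokine genes Xcl1 and Ltb were higher, and Ccl3 (-1.15) and Ccl5 (-2.29) lower, with a median of -0.59. Ifng, the interferon gamma gene, was at 103, 69.0 and 84.9 CPM against 144, 116 and 109 CPM and did not pass (edgeR BH adjusted p = 0.33).

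Receptors divided by family. Among 8 tested inhibitory receptors 5 were lower, namely Klra3, Klra7, Klra9, Klri2 and Klrg1, and Klrb1b (1.93) and Klrc1 (0.72) were higher. Klrc1 encodes the NKG2A subunit. Among 17 tested activating receptors and adaptors Cd226 (1.96), Klrb1f (0.71) and Klrk1 (0.41) were higher, and Klra4, Klra8, Cd247 (-2.03), Sh2d1a (-2.89) and Tyrobp (-0.66) were lower. Fcer1g, an adaptor of NKp46, was at 3088, 3049 and 3382 CPM in residents and 3155, 3287 and 3329 CPM in other NK cells, with overlapping values. Of 13 tested cytokine receptor genes Il7r was higher and Jak1 lower (-0.58), and Il2rb, for the IL-2 and IL-15 receptor, had a log2 difference of 0.39 that did not pass.

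Of 14 tested transcription factors Rora, Ikzf2 and Id2 (0.57), a factor required by innate lymphoid cells, were higher, and Zeb2, Klf2 and Irf8 (-1.94) lower. Tbx21, the T-bet gene shared by NK cells and ILC1s, was at 155, 96.6 and 142 CPM in residents and 179, 136 and 135 CPM in other NK cells, and the values overlapped. Zfp683, the Hobit gene, was too low to be tested, with 12 UMIs in residents and 1 in other NK cells, a pooled ratio of 16.3 (95% counting interval 2.42 to 699). Among 19 tested integrins and homing genes Itgb7 (0.99), Cxcr3 and Rgs1 (0.78) were higher, and 6 were lower, among them Itga4 (-2.91), Itga2 (-1.58), Itgam, S1pr5 and Klf2. In the immediate early list, which also reads tissue dissociation, 2 of 21 were higher and 2 lower, and in the glucocorticoid list 1 of 7 each way. None of 8 type I interferon and none of 10 glycolysis genes passed. Of 10 survival genes Bcl2a1b, Bcl2a1d, Gimap4 and Gimap6 were higher, and of 4 cell cycle genes the histone gene H2afz (-1.55) and Stmn1 (-2.20) were lower. Of 20 tested S100 and cytoskeleton genes S100a4 alone was higher and 7 were lower, among them Lgals1 (-2.22), for galectin-1, and Vim (-0.89), for vimentin.

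Promoter windows are printed for 3 genes, a gate gene that both classes express (Ncr1), one that was higher in residents (Il7r) and one that was lower (Gzmb). Each runs from 250 bases before to 50 after the annotated start, from RefSeq on build GRCm38.p6, 5′ to 3′ on the gene's strand, with the RUNX core TGTGGTT in capitals. Runx3, a RUNX factor of cytotoxic lymphocytes, was at 189, 131 and 170 CPM in residents and 201, 225 and 206 CPM in other NK cells and did not pass. Ncr1 lies at chr7:4337465-4337764 on the plus strand, Il7r at chr15:9529827-9530126 on the minus strand and Gzmb at chr14:56262285-56262584 on the minus strand.
Ncr1: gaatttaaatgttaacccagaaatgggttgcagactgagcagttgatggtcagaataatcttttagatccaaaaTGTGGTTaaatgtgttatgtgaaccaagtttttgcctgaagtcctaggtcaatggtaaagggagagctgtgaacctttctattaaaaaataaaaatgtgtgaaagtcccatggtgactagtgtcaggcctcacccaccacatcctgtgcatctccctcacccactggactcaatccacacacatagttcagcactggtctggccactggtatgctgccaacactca
Il7r: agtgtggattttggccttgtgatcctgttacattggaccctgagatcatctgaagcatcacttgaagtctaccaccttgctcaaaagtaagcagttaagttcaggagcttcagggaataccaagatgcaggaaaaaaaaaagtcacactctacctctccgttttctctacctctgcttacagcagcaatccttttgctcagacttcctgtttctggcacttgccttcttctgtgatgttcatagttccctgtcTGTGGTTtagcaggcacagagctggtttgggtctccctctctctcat
Gzmb: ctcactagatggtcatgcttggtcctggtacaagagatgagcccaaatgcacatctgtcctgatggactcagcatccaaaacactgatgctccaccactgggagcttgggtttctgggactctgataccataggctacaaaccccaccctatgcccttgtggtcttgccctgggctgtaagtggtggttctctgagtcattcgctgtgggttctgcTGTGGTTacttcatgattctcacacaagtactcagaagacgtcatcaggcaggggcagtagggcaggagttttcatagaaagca
Searched on both strands, the core lay in 6.09% of the 27025 genes with a window. It lay in 1 of the 9 higher genes with a window (Il7r), 1 of the 9 lower ones (Gzmb) and 3 of the 5 NK genes of the gate. The printed windows all hold the core and are thus not typical of the higher or lower genes. A match is only a run of letters in this window and says nothing of binding.

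In rhabdomyolysis residents were nearly gone from the NK gate. Their share of NK-gate cells was 42.1%, 48.8% and 33.3% in control replicates 1 to 3, with exact 95% binomial intervals of 32.6 to 52.0, 37.4 to 60.2 and 21.4 to 47.1. In rhabdomyolysis it was 4.17% (1 of 24, interval 0.105 to 21.1) and 2.91% (3 of 103, interval 0.605 to 8.28) in replicates 1 and 3. Replicate 2 had 0 of 18 cells (interval 0 to 18.5), and 3 cells, taken as the limit of a count of 0, would be 16.7%. These limits cover counting error only. The mean was 41.4% ± 7.73 (SD, n = 3) in control and 2.36% ± 2.14 in rhabdomyolysis, and the groups did not overlap. By a two-sided exact permutation test p = 0.1, which is the lowest value reachable with 3 libraries a group. This fall was known when the cells were chosen.

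Among all passing barcodes residents made up 1.30%, 1.38% and 0.846% in control and 0.0987%, 0% and 0.199% in rhabdomyolysis. The means were 1.17% ± 0.287 and 0.0993% ± 0.0996 (SD, n = 3 each), 11.8 times apart (exact permutation p = 0.1, the smallest possible). Without the Malat1 minimum they were 0.684% and 0.0254%, 27.0 times apart. Other NK cells did not follow: they made up 1.64% ± 0.174 of passing barcodes in control and 3.36% ± 2.89 in rhabdomyolysis (exact permutation p = 0.5), with rhabdomyolysis replicate 3 far above the rest. Without the Malat1 minimum these means were 0.937% and 0.869%, so their order turned. A share of a sorted sample cannot tell a loss of residents from an arrival of other cells, and fewer cells and less Cxcr6 and Itga1 RNA per cell cannot be told apart by this rule.

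**Figure D4:**
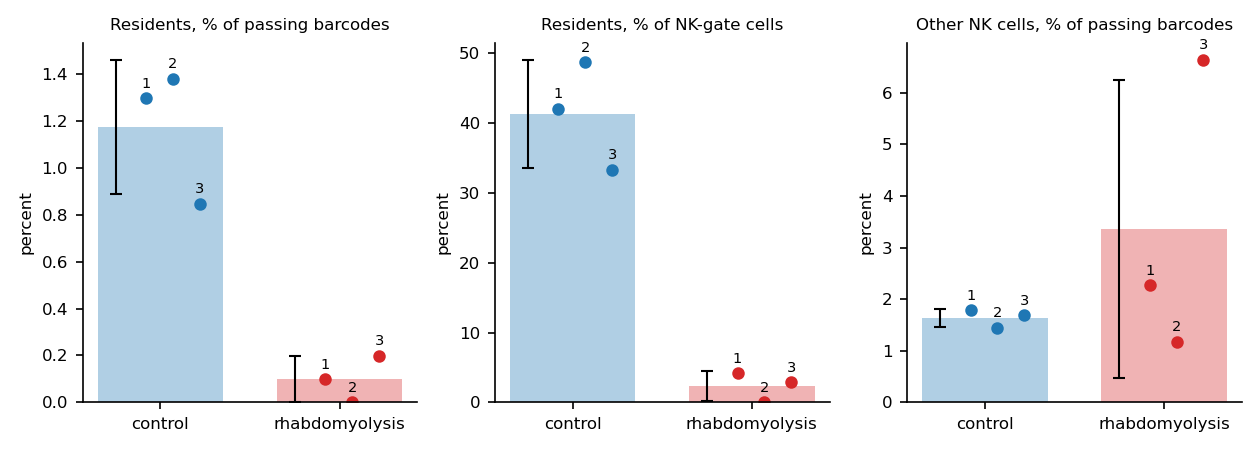
Shares per library: residents among passing barcodes, residents among NK-gate cells and other NK cells among passing barcodes, in percent. Bars are means, error bars SD (n = 3), points the numbered libraries. Residents are lower in all 3 rhabdomyolysis libraries than in every control library, and the other NK cells overlap.

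Depth was set equal by thinning each barcode to 1000 UMIs before gating, which left out 77, 117 and 98 passing barcodes in control and 41, 58 and 26 in rhabdomyolysis. Residents were then 20.3% ± 5.10 of NK-gate cells in control and 2.04% ± 2.62 in rhabdomyolysis (SD, n = 3, exact permutation p = 0.1). In rhabdomyolysis replicate 3, where other NK cells were as deep as in control, 3 of 103 cells were residents without thinning.

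A count that does not read Cxcr6 or Itga1 itself was made from the 24 named genes. These were chosen in control libraries only, between classes split by Cxcr6 and Itga1, so the count is not independent of the rule. Cells were counted by whether they held more UMIs of the 12 higher or of the 12 lower genes. In control, where the genes were chosen, 43 of 45, 38 of 39 and 19 of 19 residents held more of the higher genes, and so did 13 of 62, 6 of 41 and 5 of 38 other NK cells. In rhabdomyolysis, 1 of 23, 1 of 18 and 7 of 100 other NK cells did. Over the whole NK gate the share was 49.8% ± 6.81 in control and 7.54% ± 1.73 in rhabdomyolysis (SD, n = 3, exact permutation p = 0.1, the smallest possible), without overlap. Gzmb, 1 of the 12 lower genes, was itself higher in other NK cells of rhabdomyolysis, with 670 UMIs against 275 in control. Of the 12 lower genes 3 were lower in those cells, and 2 with the replicate block. Over all genes tested in other NK cells 1.36% were lower. The part of these changes in the share of the NK gate was not tested. Of the 4 rhabdomyolysis residents 3 held more of the higher genes. The single resident of replicate 1 had 21 UMIs of the higher genes and 0 of the lower, and the 3 of replicate 3 had 36 and 68 together.

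With 1, 0 and 3 residents in the rhabdomyolysis libraries, no test of genes between groups within residents, nor of whether the resident difference changed with injury, could be fitted. Instead the whole NK gate was compared between groups, as an addition made after the data were seen. Of 3663 genes tested (edgeR, BH), 161 (4.4%) were called, 97 (2.65%) higher and 64 (1.75%) lower in rhabdomyolysis, and 65 with same-numbered libraries as a replicate block. Leaving out a library gave 94, 87 and 87 calls without control replicates 1 to 3, 306 without rhabdomyolysis replicate 2 and 78 without replicate 3. This comparison shares its cells with the comparison of classes, so the values are set side by side only.

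Of the 12 genes higher in residents, 9 could be tested over the whole gate, of which 7 were lower in rhabdomyolysis and none higher, and 4 (Ramp1, S100a4, Gm36723 and Ltb) also with the replicate block. Over all tested genes 1.75% were lower. The 12 were chosen as high in control residents, which are few in the rhabdomyolysis gate, so their fall is no separate result. S100a4 was at 696, 719 and 708 CPM over control NK-gate cells and 16.7, 78.2 and 131 CPM in rhabdomyolysis, a log2 difference of -2.62 ± 0.30 (edgeR BH adjusted p = 7.06e-05, and 0.000983 with the block). Ltb was at 651, 572 and 518 CPM against 233, 19.5 and 153 CPM (edgeR BH adjusted p = 0.00145). Tnfsf10, Rora and Ikzf2 were lower without the block, with edgeR BH adjusted p of 0.0576, 0.109 and 0.181 with it. Il7r, at 112, 127 and 106 CPM in control and 167, 0 and 38.7 CPM in rhabdomyolysis, overlapped and did not pass. Among other NK cells alone 3 of the 12 could be tested and none was called (S100a4, Gm36723 and Ltb, edgeR BH adjusted p of 0.277, 0.0614 and 0.0699), and the difference between these comparisons was not tested.

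**Figure D5:**
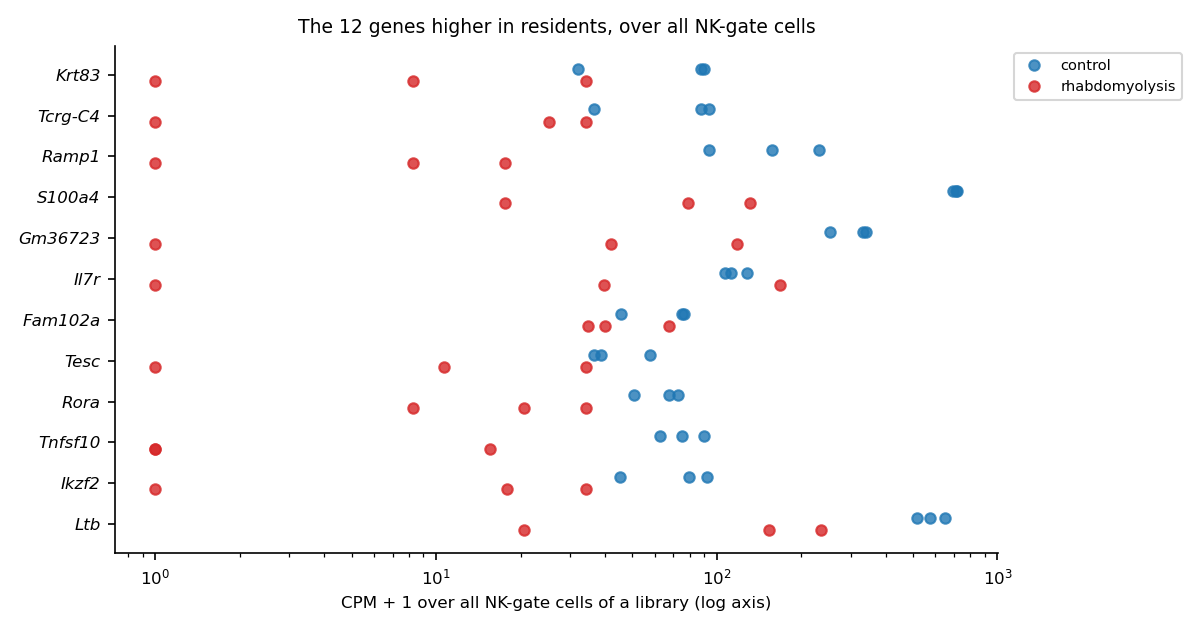
The 12 genes higher in residents, over all NK-gate cells: the horizontal log axis gives CPM + 1, with 3 control and 3 rhabdomyolysis libraries as points. Rhabdomyolysis libraries lie below control for most genes, such as S100a4 and Ltb, and overlap with control for Krt83, Il7r and Fam102a.

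Of 20 tested residency list members 10 were lower over the whole gate and none higher, with a median of -1.28 against -0.02 over all genes, and 5 were lower with the replicate block. Over all tested genes 1.75% were lower and 2.65% higher, and this list was itself high in control residents. Cxcr3, the receptor for interferon-induced chemokines, was at 278, 284 and 177 CPM in control and 16.7, 19.5 and 36.3 CPM in rhabdomyolysis, a log2 difference of -2.79 ± 0.35 (edgeR BH adjusted p = 0.000139). Cd7 was at 894, 993 and 677 CPM against 283, 117 and 82.3 CPM. Both groups of values lay apart. Within other NK cells, where 86 of 2201 genes (3.91%) were called (56 or 2.54% higher, 30 or 1.36% lower; 42 with the block), Cxcr3 and Cd7 were also lower, by -1.95 and -1.80 on the log2 scale (edgeR BH adjusted p = 0.0131 and 0.0061). With the replicate block Cxcr3 did not pass there (edgeR BH adjusted p = 0.0857). The count of 86 became 33, 44 and 33 without control replicates 1 to 3, and 49, 159 and 40 without rhabdomyolysis replicates 1 to 3. Thus Cxcr3 and Cd7 were lower in rhabdomyolysis in cells with no Cxcr6 or Itga1 UMI, among which 13, 6 and 5 control cells by library held more resident than other NK genes. Over the whole gate the circulating list had 2 of 25 higher and 3 lower, with a median of 0.16.

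Other genes were higher over the gate in rhabdomyolysis. Gzmb over the gate was at 297, 206 and 482 CPM in control and 1300, 645 and 1418 CPM in rhabdomyolysis (log2 difference 1.98 ± 0.30, edgeR BH adjusted p = 0.000763). In other NK cells alone it was also higher, by 1.26 (edgeR BH adjusted p = 0.0197). Ccl3, a chemokine for monocytes and lymphocytes, was at 525, 181 and 359 CPM against 2017, 586 and 1963 CPM. Bhlhe40, Dusp2 and Serpinb9 were higher by 2.03, 1.80 and 1.77. In the immediate early list 8 of 23 were higher and 2 lower. In the glucocorticoid list 5 of 10 were higher, among them Klf9 (2.31). With the replicate block 4 and 3 were higher in these lists. Without it, 2.65% of all tested genes were higher and 1.75% lower. The heat shock gene Hspa1a, also a gene of the dissociation response, was at 39.6, 439 and 208 CPM in control NK-gate cells and had 0 UMIs in rhabdomyolysis. The neutrophil markers summed to 39.3 to 61.2 CPM in other NK cells of control and 567 to 967 CPM in rhabdomyolysis, with 3 of the 8 at 0 there. Conventional dendritic cell markers went the other way, from 1388 to 6008 CPM in control to 120 to 1264 CPM in rhabdomyolysis, with 4 of the 9 at 0. The part of either in the differences between groups was not tested.

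T cells of the same libraries, which the resident rule leaves out, also held less Cxcr6. It was at 1088 ± 41.9 CPM (SD, n = 3) in control T cells and 180 ± 122 CPM in rhabdomyolysis. The share of T cells with a Cxcr6 UMI was 76.9% ± 0.469 and 24.4% ± 12.7, and 54.8% ± 1.93 and 14.1% ± 9.40 after thinning to 1000 UMIs. The groups did not overlap (exact permutation p = 0.1 for each measure, the smallest possible), and Cxcr6 was thus lower in rhabdomyolysis outside the NK gate too.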

How the data were processed

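10x Genomics single-cell libraries of CD45-sorted kidney cells were analysed from the UMI count matrices as deposited by the authors, made with Cell Ranger 4 per the file headers and mm10 per the submitters' processing notes, not normalized and not filtered for cells. The matrices hold 32285 genes and 6 antibody tags. The members and gene lists were chosen with earlier results of these data known.

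Passing barcodes had at least 500 gene UMIs, 200 genes, Malat1 (an abundant nuclear RNA) at 0.3% of UMIs or more, and mitochondrial UMIs up to 15%. T cells for reference had at least 3 UMIs of Cd3 genes. Counts were summed per library and class, for libraries with at least 10 cells, and tested with the edgeR 4.0.16 quasi-likelihood test (TMM scaling, default filter, BH adjustment), with 25 gate, mitochondrial and Malat1 features left out. DESeq2 1.42.0 was an alternative. CPM are UMIs per 1000000 of the class. Shares and tags were tested by exact permutation (scipy 1.17.1). Free RNA came from barcodes with at most 100 UMIs. Named genes were the 12 largest changes each way among those called with an average log2 CPM of at least 5, all libraries or pairs in 1 direction, and a level at least 2 times that of free RNA, leaving out gate, ribosomal, hemoglobin, immunoglobulin and sex-linked genes. Members of the lists could be named whether called or not.

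On simulated counts for the comparison of classes (2370 genes) 98.8% of 4-fold and 31.8% of 2-fold changes were called, with 0.23% of unchanged genes. These counts had the same dispersion for every gene and no difference between libraries beyond depth. The rates hold for that setting only and were not measured on the real counts. The labels do not say what replicate numbers share. Deviations of same-numbered libraries correlated at 0.218, 0.235 and 0.225 over all passing barcodes, and at 0.0620, -0.00689 and -0.0154 over NK-gate cells, so blocked counts are given beside the results. Alternatives were other gates, filters, tools and left-out libraries. 1 gene that the rule names is not reported here.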

Additional observations from a re-analysis of the deposited data

How the results depend on the processing

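The number of genes called between residents and other NK cells, 156, became 47 with the DESeq2 Wald test, 73 with Itga1 alone as the rule and 1 after thinning to 1000 UMIs, where 480 genes were tested. It was 81 to 207 when 1 control library was left out, and 143 with no replicate block. In the other settings it lay between 126 and 210. Of its calls 8 changed sign under Itga1 alone and 2 after thinning. Among the list and named genes, Serpinb9 (0.23), Klrc1 (-0.17), Jak1 (0.10), Tsc22d3 (0.35) and Bcl2a1b (-0.013) did so under Itga1 alone and Ccl3 (1.56) after thinning, none of these 6 past the threshold there. The cause was not tested.

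Between groups, the 86 calls in other NK cells became 38 with the DESeq2 Wald test, 42 with the replicate block and 33 to 159 when 1 library was left out. The 161 calls over the NK gate became 58 with the DESeq2 Wald test, 65 with the replicate block and 78 to 306 when 1 library was left out. With the block the residents' shares had exact sign-flip p of 0.25, the smallest possible. The residents' share of NK-gate cells was lower in rhabdomyolysis in every setting run, by 14.6 percentage points with Itga1 alone and up to 43.0 without control replicate 3. Tests within residents between groups, and of the class difference between groups, were not run with any alternative, since no 2 rhabdomyolysis libraries had 10 residents. The few cells, 19 residents in control replicate 3 and 4 in all of rhabdomyolysis, limit every value here.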
